A study of Mus musculus with 4 samples.

Results

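The G2/M and mitosis genes are 44 genes, of 32285 in the files, that were chosen by symbol, and all 44 were found. They encode the proteins that take a cell from late G2 through mitosis to cytokinesis. They were examined in microglia of 2 PRMT1FL mice and 2 PRMT1Cx3cr1-KO mice, with 1 library of single cells from each mouse. All 4 mice were on a C57BL/6 background with floxed Prmt1 alleles and received tamoxifen for 5 days at 5 to 6 wk of age, and the PRMT1Cx3cr1-KO mice also carried Cx3cr1-CreERT, a tamoxifen-inducible recombinase made in Cx3cr1-expressing cells, which include microglia and other macrophages. The diet with 0.2% cuprizone (CPZ), a copper chelator that causes demyelination, began 2 wk after tamoxifen and was given to both genotypes for 5 wk, so that no unfed group is compared here. The sample labels place the 5 to 6 wk of age at the diet itself, call the sorted CD45+ and CD11b+ cells quiescent microglia, and call the PRMT1FL mice wild type. Sex and age were matched between the genotypes.

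Entry into mitosis is driven by cyclin-dependent kinase 1 (Cdk1) bound to B-type cyclins. Chromosomes are then condensed, captured by the spindle through their kinetochores and held until the spindle assembly checkpoint is satisfied, when the anaphase-promoting complex marks cyclin B and securin for degradation and the cell divides. Most of these genes are transcribed together late in the cycle and are silent in resting cells. Microglia are long-lived and divide rarely in the healthy brain, and they proliferate during demyelination.

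Promoter sequence, which the choice of genes did not use, was read next. The cell cycle genes homology region (CHR), with the sequence TTTGAA and a known variant that reads TTTAAA, is bound by the MuvB complexes, and CCAAT boxes are bound by NF-Y. Both are known elements of late cell cycle promoters. RefSeq windows from 250 bases before to 50 bases after the transcription start (GRCm38.p6) were matched for 37 members, with 39 windows, and not for Ccna2, Pbk, Aurkb, Incenp, Tpx2, Kif20a and Smc4. Searched on both strands, CCAAT was found in 31 of the 39 windows (79.5%) and in 37.4% of all 32851 windows. TTTGAA was found in 31 windows (79.5%) against 17.9% of all windows, and within 40 bases of the start in 28 windows (71.8%) against 4.20%. TTTAAA was found in 9 windows (23.1%) against 13.2%. CCAAT and TTTGAA stood together in 27 windows (69.2%) against 6.95%, and neighbouring CCAAT boxes that began 31 to 34 bases apart were found in 8 windows (20.5%) against 1.14%. The core promoter motif TATAAA was found in 1 window (2.56%) against 13.6%. The windows of Nuf2, Nusap1 and Tacc3 held no CCAAT box and neither form of the CHR, and that of Birc5 held TTTAAA but no CCAAT or TTTGAA. The members were picked as cell cycle genes, so these shares describe them, and no factor binding was measured.

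The 100 bases upstream of the start are printed for 6 members, 5′ to 3′ on the strand of the gene, with the CCAAT and TTTGAA elements of either strand in capitals. Cdk1, Cdc20, Kif11, Top2a and Hmgb2 are shown because both elements lie whole within these bases and annotated exons cover at most 30 of them. Ccnb2 is shown because its 3 CCAAT boxes begin 33 bases apart. The stretches lie at chr10:69352913-69353012 (minus strand), chr9:70421555-70421654 (minus strand), chr4:118437344-118437443 (minus strand), chr19:37376282-37376381 (plus strand), chr11:99024190-99024289 (minus strand) and chr8:57511743-57511842 (plus strand).
Cdk1: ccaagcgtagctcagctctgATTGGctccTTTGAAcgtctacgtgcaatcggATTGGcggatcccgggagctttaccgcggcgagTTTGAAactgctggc
Ccnb2: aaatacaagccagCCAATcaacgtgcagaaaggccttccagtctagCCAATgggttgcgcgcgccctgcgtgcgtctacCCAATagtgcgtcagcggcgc
Cdc20: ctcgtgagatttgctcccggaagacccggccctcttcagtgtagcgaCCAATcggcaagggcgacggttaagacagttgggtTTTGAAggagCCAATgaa
Kif11: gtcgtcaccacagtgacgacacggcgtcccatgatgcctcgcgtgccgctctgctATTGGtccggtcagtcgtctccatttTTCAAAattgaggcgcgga
Top2a: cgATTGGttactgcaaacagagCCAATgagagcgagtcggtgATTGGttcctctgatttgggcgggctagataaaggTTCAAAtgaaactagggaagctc
Hmgb2: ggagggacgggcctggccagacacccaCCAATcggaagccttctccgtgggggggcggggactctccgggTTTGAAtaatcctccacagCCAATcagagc
In Cdc20 the TTTGAA element began 18 bases before the start, between CCAAT boxes at 53 and 8 bases. In Kif11 it began 19 bases before the start and in Top2a 23 bases. Top2a held 6 CCAAT boxes in the whole window.

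The libraries held 76943248 to 99559644 unique molecular identifiers (UMIs, which count each captured RNA molecule once). After filters on genes per cell and mitochondrial UMIs and a check of marker genes, 11058 and 7875 cells of the PRMT1FL mice and 10238 and 10786 of the PRMT1Cx3cr1-KO mice were kept as microglia, with a median of 6231 to 7111 UMIs. The microglial markers Csf1r and P2ry12 stood at 1285 to 1571 and 401 to 581 CPM (UMIs of a gene per 1000000 UMIs) in the 4 mice, and the summed markers of monocytes, neutrophils and lymphocytes at no more than 18.8 CPM. The cells were kept by these same marker lists, so these levels describe the kept cells and do not check the label. The cycling cells described below go against the word quiescent. In the kept cells astrocyte markers summed to 43.6 to 133 CPM, endothelial markers to 57.3 to 67.6 CPM and oligodendrocyte markers to 30.3 to 45.1 CPM. Border macrophage markers, which Cx3cr1-CreERT can also reach, summed to 28.4 and 35.0 CPM in PRMT1FL mice against 44.6 and 115 CPM in PRMT1Cx3cr1-KO mice. Their part in the results was not tested. Haemoglobin UMIs differed with genotype, at 16450 and 6835 in PRMT1FL microglia and 5 and 2 in PRMT1Cx3cr1-KO microglia, and 9 cells of the PRMT1FL mice held 16244 and 6824 of them. From 31 to 46 cell barcodes were shared by any pair of libraries. Prmt1 stood at 90.8 and 83.8 CPM in PRMT1FL microglia and at 70.2 and 70.6 CPM in PRMT1Cx3cr1-KO microglia, a log2 fold change of -0.38 (SE 0.07) that was not called by edgeR's quasi-likelihood test (adjusted p = 0.0742). The 3′ UMIs of Prmt1 may lie outside the floxed part, so this level checks the labels only in part.

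The first question was whether these genes differed between the genotypes in microglia as a whole. All 44 members had a higher CPM in each PRMT1Cx3cr1-KO mouse than in either PRMT1FL mouse, while 38.4% of the 13951 genes tested were. The median log2 fold change of the members was 0.69 (range 0.34 to 0.87) beside -0.00 for all genes tested. In the quasi-likelihood test of edgeR, with p adjusted over all genes tested by Benjamini and Hochberg, 3 members were called higher at an adjusted p under 0.05 and none lower, while 0.487% of genes tested were called higher. At an unadjusted p under 0.05, 43 members were higher, beside 10.00% of genes tested. Anln was the exception (edgeR unadjusted p = 0.0681, adjusted p = 0.287). Here and below a level is a sum over the cells of a mouse, and in such sums more expressing cells and more RNA per expressing cell cannot be told apart. The 4 libraries count as 4 samples, and p-values measure only the spread between them.

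**Figure D1:**
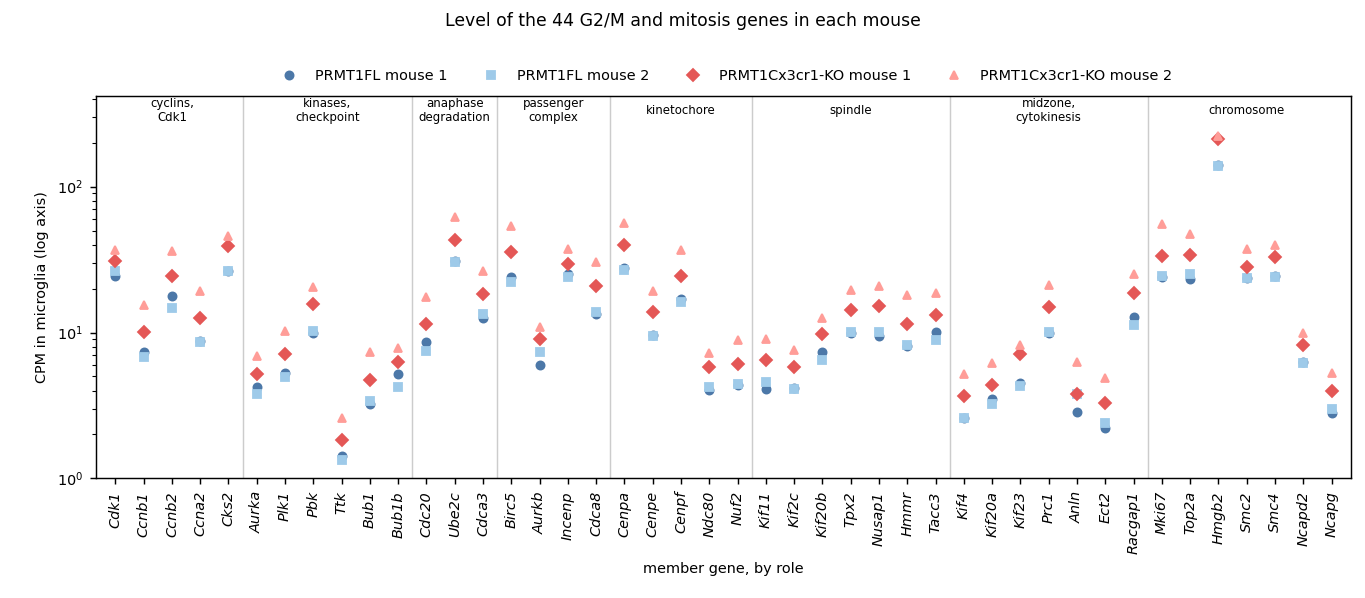
Level of each of the 44 members in the microglia of each mouse, in CPM on a log axis, with genes grouped by role and 1 point for each mouse. For every member both PRMT1Cx3cr1-KO points lie above both PRMT1FL points, and PRMT1Cx3cr1-KO mouse 2 lies above mouse 1 throughout.

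The 3 called members have different roles. Hmgb2, a chromatin protein that bends DNA (chromosome 8 of mm10, 57511907 to 57515999), stood at 141 and 139 CPM in PRMT1FL mice against 211 and 221 CPM in PRMT1Cx3cr1-KO mice. The replicates of each genotype lay close together, and the log2 fold change was 0.55 (SE 0.06, edgeR adjusted p = 0.0278). Cks2, a small subunit that binds Cdk1 and its relatives (chromosome 13, 51645232 to 51650660), stood at 26.5 and 26.2 CPM against 39.1 and 46.1 CPM. Its log2 fold change was 0.62 (SE 0.08, edgeR adjusted p = 0.0437). Kif23, a kinesin of the central spindle that is needed for cytokinesis (chromosome 9, 61915905 to 61946774), stood at 4.51 and 4.31 CPM against 7.07 and 8.20 CPM. Its log2 fold change was 0.72 (SE 0.10, edgeR adjusted p = 0.0484). Over 12 alternative settings Hmgb2 was called in 10, with adjusted p from 4.0e-11 to 0.470, Cks2 in 9 (1.2e-06 to 0.510) and Kif23 in 7 (3.9e-05 to 0.510).

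The counts of called members depended on single mice. In every member PRMT1Cx3cr1-KO mouse 2 was higher than mouse 1, and leaving out PRMT1Cx3cr1-KO mouse 1 or mouse 2 gave 44 or 30 called members (beside 9.41% and 4.27% of genes tested called higher), with the lone mouse assumed to vary like the others. The edgeR calls of members were lost when PRMT1FL mouse 1 or mouse 2 was left out. The share of all genes called in those fits is not given here, so this loss is not read as a result about the members. Over the 12 alternatives, which include leaving out each mouse in turn, the log2 fold change was 0.52 to 0.62 for Hmgb2, 0.52 to 0.71 for Cks2 and 0.63 to 0.80 for Kif23. DESeq2 called 35 members, beside 3.05% of genes tested, and edgeR with the replicate number as a block 16, beside 1.31%.

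Of the 5 cyclins and Cdk1 partners, all were higher, with a median log2 fold change of 0.78. Cdk1, the kinase that drives mitotic entry, stood at 24.5 and 26.3 CPM in PRMT1FL mice against 30.9 and 36.9 CPM in PRMT1Cx3cr1-KO mice. Its log2 fold change of 0.34 (SE 0.09, edgeR adjusted p = 0.121) was the smallest of the 44. Ccnb2, a B-type cyclin, stood at 17.9 and 14.8 CPM against 24.3 and 36.0 CPM (log2 fold change 0.80). Ccnb1, the cyclin that forms the main mitotic complex with Cdk1, and Ccna2, the A-type cyclin, had log2 fold changes of 0.78 and 0.81, and neither was called. All 5 genes had their highest value in PRMT1Cx3cr1-KO mouse 2.

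The 6 mitotic kinases and checkpoint proteins had a median log2 fold change of 0.64, and none was called. Plk1, polo-like kinase, stood at 5.31 and 4.98 CPM against 7.11 and 10.2 CPM. Pbk, a mitotic kinase, stood at 9.87 and 10.2 CPM against 15.7 and 20.6 CPM (log2 fold change 0.78, edgeR adjusted p = 0.0606). Aurka, Ttk, Bub1 and Bub1b ranged from 0.51 to 0.79. Bub1 and Bub1b belong to the spindle assembly checkpoint. Of the anaphase regulators, Ube2c, the ubiquitin-conjugating enzyme of the anaphase-promoting complex, stood at 30.9 and 30.6 CPM against 42.9 and 61.7 CPM (log2 fold change 0.69). Cdca3, a trigger of mitotic entry, stood at 12.5 and 13.3 CPM against 18.3 and 26.3 CPM, and Cdc20, the activator of the anaphase-promoting complex, had a log2 fold change of 0.76.

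The chromosomal passenger complex corrects attachments between chromosomes and spindle and later directs cytokinesis. Its members held both the largest and nearly the smallest differences. Birc5 (survivin) stood at 24.1 and 22.1 CPM against 35.6 and 53.5 CPM, and its log2 fold change of 0.87 (SE 0.17, edgeR adjusted p = 0.0823) was the largest of the 44. Cdca8 (borealin) stood at 13.3 and 13.9 CPM against 20.8 and 30.4 CPM (log2 fold change 0.84). Incenp, the scaffold of the complex, stood at 25.0 and 23.9 CPM against 29.7 and 37.4 CPM (log2 fold change 0.38). Aurkb, its kinase, had a log2 fold change of 0.51.

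The 5 kinetochore genes had a median of 0.72 in log2 fold change and the 7 spindle genes one of 0.69, with none called in either group. Cenpa, the histone variant that marks centromeres, stood at 27.8 and 26.9 CPM against 39.6 and 56.2 CPM. Cenpf, a kinetochore protein of G2 and mitosis, stood at 16.9 and 16.2 CPM against 24.5 and 36.8 CPM (log2 fold change 0.81). Tpx2, which nucleates spindle microtubules, stood at 9.91 and 10.1 CPM against 14.3 and 19.7 CPM. Nusap1, which bundles them, stood at 9.45 and 10.1 CPM against 15.1 and 20.7 CPM. In both groups the higher PRMT1FL value lay below the lower PRMT1Cx3cr1-KO value. Of the 7 genes of the midzone and cytokinesis, Prc1, which crosslinks the central spindle, stood at 9.90 and 10.1 CPM against 14.9 and 21.3 CPM, and Racgap1, the partner of Kif23, at 12.8 and 11.2 CPM against 18.6 and 25.1 CPM (both log2 fold change 0.78).

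The 7 chromosome genes had the lowest median of the 8 role groups, 0.55. Mki67, which coats mitotic chromosomes and is the usual marker of proliferation, stood at 24.1 and 24.5 CPM against 33.3 and 55.2 CPM (log2 fold change 0.79, SE 0.20). Smc2, a condensin subunit, stood at 23.5 and 23.6 CPM against 28.0 and 37.6 CPM (log2 fold change 0.40). Top2a, the topoisomerase that untangles sister chromatids, had a log2 fold change of 0.67. The condensin subunits Smc4, Ncapd2 and Ncapg ranged from 0.47 to 0.59.

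The next question was whether more cells were cycling or whether each cycling cell held more of these RNAs. A cycling cell was defined as a microglial cell with at least 3 UMIs from at least 2 of 58 other mitotic genes, the gate genes, none of which is a member. Cycling cells made up 11.9% and 11.7% of PRMT1FL microglia (1313 and 920 cells) and 16.6% and 23.2% of PRMT1Cx3cr1-KO microglia (1699 and 2506 cells). Wilson 95% intervals, which cover counting error only, were 11.3 to 12.5%, 11.0 to 12.4%, 15.9 to 17.3% and 22.4 to 24.0%. The log2 ratio of the genotype means was 0.76, and the shares did not overlap between genotypes. An exact permutation test over the 4 mice gave p = 0.33, 2-sided, the smallest that 2 mice against 2 can give. Without PRMT1Cx3cr1-KO mouse 2 the log2 ratio was 0.49.

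**Figure D2:**
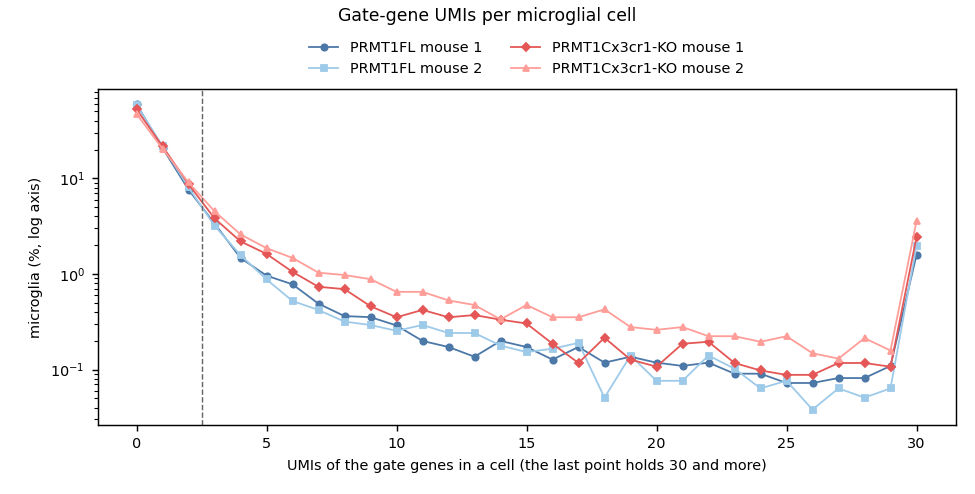
Percent of microglia (log axis) by the number of gate-gene UMIs in the cell, with a line for each mouse and cells of 30 or more UMIs in the last point; the dashed line is the gate of 3 UMIs. The curves fall without a gap at the gate, and at 5 to 9 UMIs both PRMT1Cx3cr1-KO lines lie above both PRMT1FL lines.

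No gap separated cycling from other cells, and 29.7 to 39.7% of the cycling cells held only 3 or 4 gate-gene UMIs. Cells set aside for astrocyte markers, which should hold few dividing cells, gave the background. Of 219 such cells, 38 (17.4%) passed a gate of 2 UMIs and 19 (8.68%) passed the gate of 3. A gate of 5 was passed by 3 (1.37%) and a gate of 10 by 0, which allows a share of up to 1.37%. Their median depth was 2912 UMIs, below that of microglia, and 105, 81, 21 and 12 of them came from PRMT1FL mice 1 and 2 and PRMT1Cx3cr1-KO mice 1 and 2. Of 74 cells set aside for endothelial markers, with a median of 2144 UMIs, 0 passed the gate of 3 UMIs, which allows a share of up to 4.05%. The same gate was passed by 6 of 73 neutrophil-marked cells (8.22%, median 4612 UMIs). It was passed by 18 of 307 border macrophage-marked cells (5.86%, median 3412 UMIs) and 6 of 30 monocyte-marked cells (20.0%, median 7058 UMIs). With 5 UMIs the share of cycling cells was 7.17%, 7.05%, 10.9% and 16.3% in PRMT1FL mice 1 and 2 and PRMT1Cx3cr1-KO mice 1 and 2 (log2 ratio 0.94). With 10 UMIs it was 4.24%, 4.62%, 6.41% and 10.1% (log2 ratio 0.90). Every gate put both PRMT1Cx3cr1-KO mice above both PRMT1FL mice.

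Cycling cells were deeper than others, with medians of 11188 to 13944 UMIs against 5719 to 6591. Each cell was therefore thinned to 2000 UMIs, with a gate of 2 UMIs, and 565 to 1034 shallower cells per mouse were left out. The share was then 6.78% and 6.07% in PRMT1FL mice against 9.83% and 13.7% in PRMT1Cx3cr1-KO mice (log2 ratio 0.87), beside 5.26% (8 of 152) of the astrocyte-marked cells. The thinned shares of the PRMT1FL mice thus lay near that of the astrocyte-marked cells. In the thinned cycling cells of PRMT1FL mice the members made up 46.1 and 49.6 UMIs per 10000, against 2.70 and 2.49 in the other thinned cells. This level was not read in the astrocyte-marked cells that passed. Of all 219 astrocyte-marked cells, not thinned, 1 held UMIs of Mki67, 1 of Birc5, 2 of Ube2c, 14 of Ncapd2 and 35 of Hmgb2. In PRMT1FL microglia that passed the gate of 3 UMIs, Mki67 was found in 38.8% and 41.5%, Birc5 in 47.1% and 44.6% and Hmgb2 in 79.1% and 81.2%. Those microglia were deeper, and how many of them pass as background was not tested. The members themselves gave the same order of the genotypes, as 5.53% and 5.52% of PRMT1FL microglia and 8.27% and 13% of PRMT1Cx3cr1-KO microglia held UMIs of at least 10 of the 44.

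**Figure D3:**
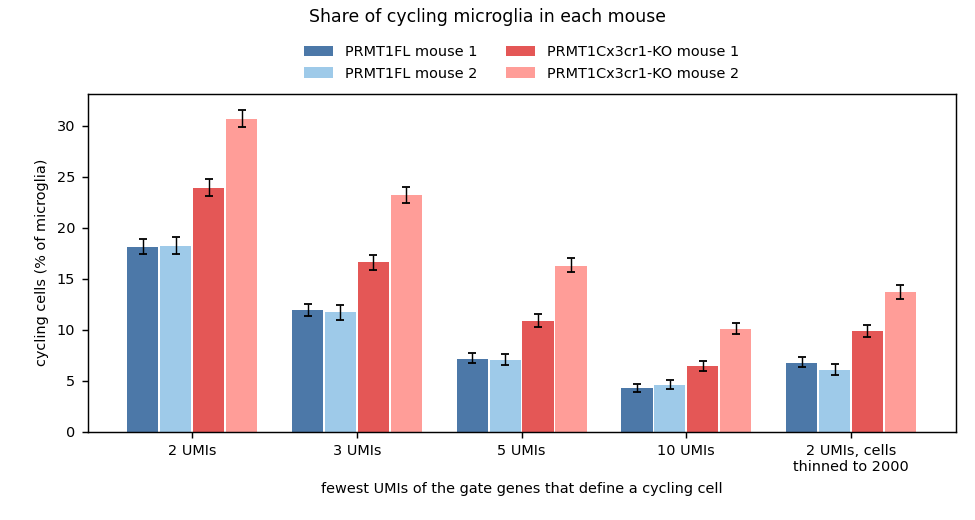
Cycling cells as a percent of microglia in each mouse under 4 gates on the gate genes and in cells thinned to 2000 UMIs; bars are single mice and error bars are Wilson 95% intervals of counting error. In each set the bars of PRMT1Cx3cr1-KO mice stand above those of PRMT1FL mice. At 2 UMIs PRMT1FL mice are at 18.1% and 18.2% against 23.9% and 30.7%. At 10 UMIs they are at 4.24% and 4.62% against 6.41% and 10.1%. Of the shallower astrocyte-marked cells 17.4% also passed the gate of 2 UMIs, near the PRMT1FL shares.

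The cells that passed the gate of 3 UMIs held most of the RNA of the members. They held 71.9% and 73.8% of the member UMIs of PRMT1FL microglia and 76.7% and 84.3% of those of PRMT1Cx3cr1-KO microglia, beside 19.5%, 19.5%, 26.6% and 34.7% of all UMIs. The share varied between members. Of Mki67 UMIs, 91.5 to 94.6% lay in cycling cells, and of Birc5 UMIs 91.5 to 94.7%. Of Hmgb2 UMIs, 47.2% and 48.2% did so in PRMT1FL mice against 54.5% and 68.2% in PRMT1Cx3cr1-KO mice. Incenp (47.7 to 65.5%), Cks2 (53.9 to 70.4%), Cdk1 (55.0 to 75.3%) and Smc2 (61.8 to 80.2%) also had a large part outside. Cdk1, Incenp and Smc2 were also the 3 members with the smallest log2 fold changes over all microglia. In the astrocyte-marked cells, UMIs of Hmgb2 were found in 16.0% and of Mki67 in 0.457%. In non-cycling microglia the shares were 39.7 to 46.8% and 1.15 to 2.77%. Depth was unequal, with medians of 2912 UMIs in the astrocyte-marked cells and 5719 to 6591 in non-cycling microglia. In thinned non-cycling microglia, Hmgb2 was found in 17.1% and 16.7% of PRMT1FL cells and 21.8% and 18.5% of PRMT1Cx3cr1-KO cells. Mki67 was found there in 0.283% and 0.249% against 0.688% and 0.824%. The astrocyte-marked cells were not thinned for these shares, so a level above background was not tested.

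Within cycling cells the genotype differences were small. No member was called by edgeR in either direction, where 0.315% of 12080 genes tested were called higher. At an unadjusted p under 0.05, 8 members were higher (Birc5, Cdca8, Cenpa, Cenpe, Cenpf, Cks2, Hmgb2 and Racgap1), beside 6.42% of genes tested, and DESeq2 called no member. In cycling cells edgeR called 11 members without PRMT1Cx3cr1-KO mouse 1, beside 4.98% of genes tested, and 1 member, Hmgb2, when PRMT1Cx3cr1-KO mouse 2 was left out instead, beside 2.70%. In both PRMT1Cx3cr1-KO mice 27 members were above both PRMT1FL mice, beside 29.8% of genes tested. The median log2 fold change was 0.13 (range -0.10 to 0.29) beside -0.00 for all genes tested.

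Cdk1 stood at 69.0 and 81.7 CPM in cycling cells of PRMT1FL mice and 77.6 and 80.1 CPM in those of PRMT1Cx3cr1-KO mice, so that the genotypes overlapped. Its log2 fold change there was 0.02 (SE 0.09). Mki67 stood at 115 and 119 CPM against 114 and 150 CPM and also overlapped. Ube2c, at 133 and 137 CPM against 140 and 159 CPM, had a log2 fold change of 0.09 (SE 0.08), and Plk1, at 25.1 and 24.5 CPM against 25.3 and 28.0 CPM, one of 0.05 (SE 0.09). The largest value was that of Hmgb2, at 341 and 346 CPM against 433 and 435 CPM, with no overlap and a log2 fold change of 0.29 (SE 0.07, edgeR adjusted p = 0.142). Cenpa followed at 103 and 95.7 CPM against 114 and 135 CPM (0.27, SE 0.09) with Cdca8 at 60.1 and 63.1 CPM against 71.9 and 81.8 CPM (0.27, SE 0.08). The kinases and checkpoint genes had the lowest median of the role groups, 0.02, with Bub1b at -0.10 (SE 0.10).

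The level in cycling cells depended on the gate. Averaged over cells, the members made up 29.6 and 29.2 UMIs per 10000 UMIs of a cycling cell in PRMT1FL mice against 31.4 and 33.7 in PRMT1Cx3cr1-KO mice. With 5 UMIs the values were 42.9, 42.9, 42.2 and 43.7, and with 10 UMIs they were 57.6, 55.8, 57.4 and 58.7, so that the genotypes overlapped. The median log2 fold change of the members in cycling cells was -0.06 with 5 UMIs and -0.07 with 10. The gate genes are transcribed with the members, so a gate also sets in part the level above and below it.

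Members were also found outside the gate. Non-cycling cells held 2.76 and 2.41 member UMIs per 10000 in PRMT1FL mice against 3.26 and 3.35 in PRMT1Cx3cr1-KO mice. This class may include cycling cells that the gate missed. Exactly 2 gate-gene UMIs were held by 842 and 634 PRMT1FL cells and 891 and 975 PRMT1Cx3cr1-KO cells. How many of these were cycling was not tested. The median log2 fold change was 0.44 (range -0.14 to 1.33) beside -0.00 for all genes tested, and 33 members were higher in both PRMT1Cx3cr1-KO mice, beside 37.9% of 13461 genes tested. Cks2 and Mki67 were called higher by edgeR, beside 0.854% of genes tested, and 16 members were higher at an unadjusted p under 0.05, beside 9.70%.

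Mki67 (chromosome 7, 135689784 to 135716361) stood at 2.07 and 1.71 CPM in non-cycling cells of PRMT1FL mice, from 148 and 102 UMIs, and at 3.88 and 4.59 CPM in those of PRMT1Cx3cr1-KO mice, from 234 and 286 UMIs (log2 fold change 1.09, SE 0.16, edgeR adjusted p = 0.0385). Cks2 stood at 14.9 and 15.0 CPM against 22.3 and 20.9 CPM (0.46, SE 0.08, edgeR adjusted p = 0.0491). Ccnb2, at 2.13 and 1.58 CPM against 3.73 and 6.11 CPM, had the largest log2 fold change (1.33, SE 0.26) and was not called (edgeR adjusted p = 0.0678). By contrast Cdk1 stood at 13.7 and 12.9 CPM against 13.9 and 14.0 CPM (-0.00, SE 0.07) and Smc2 at 11.2 and 9.10 CPM against 9.95 and 11.4 CPM (0.00, SE 0.12). Hmgb2 was at 92.6 and 89.7 CPM against 131 and 108 CPM (0.32, SE 0.11). Over 16 alternative settings Mki67 was called in 9 (adjusted p 1.9e-04 to 0.287) and Cks2 in 9 (0.00110 to 0.314). In non-cycling cells no member was called when PRMT1FL mouse 1 or mouse 2 was left out, and without PRMT1Cx3cr1-KO mouse 1 or mouse 2 there were 12 or 4, beside 6.93% and 3.66% of genes tested.

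**Figure D4:**
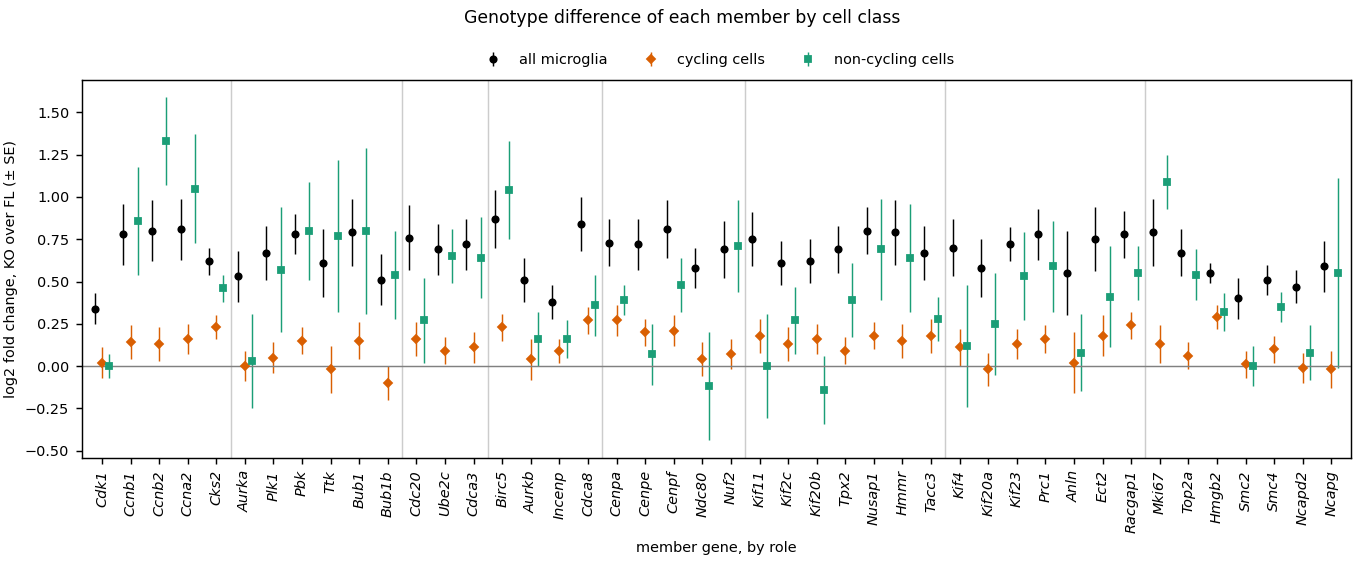
Log2 fold change of each member, PRMT1Cx3cr1-KO over PRMT1FL, with its SE, in all microglia (circles), cycling cells (diamonds) and non-cycling cells (squares) at the gate of 3 UMIs. Values in cycling cells lie between -0.10 and 0.29, below those in all microglia for every member, and values in non-cycling cells spread from -0.14 to 1.33 with wide errors.

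A fit to both classes, with a term for each mouse, tested whether the genotype difference was the same in cycling and non-cycling cells. It was smaller in cycling cells for 4 members (Ccnb2, Mki67, Birc5 and Ube2c) and larger for none, while 0.497% of 13492 genes tested were called smaller. The difference of the log2 fold changes was -1.21 (SE 0.15) for Ccnb2, -0.96 (SE 0.11) for Mki67, -0.81 (SE 0.17) for Birc5 and -0.56 (SE 0.11) for Ube2c, with edgeR adjusted p of 9.9e-04, 4.4e-04, 0.0421 and 0.0256. Ccnb2 lies on chromosome 9 (70407692 to 70421547), Birc5 on chromosome 11 (117849251 to 117855743) and Ube2c on chromosome 2 (164769898 to 164778822). The median over the members was -0.28, and it was -0.54 with the gate of 5 UMIs, where 20 members were called (beside 1.25% of genes tested), and -0.76 with the gate of 10 UMIs, where 28 were (beside 1.21%). A stricter gate may leave more cycling cells below it, and the part of such cells in the calls was not tested. For Cdk1, Hmgb2 and Smc2 the difference was 0.02 (SE 0.09), -0.03 (SE 0.06) and 0.00 (SE 0.11). The count of members called here also changed when single mice were left out. Over 12 alternatives, which include leaving out each of the 4 mice in turn, the difference ran from -1.44 to -0.38 for Ccnb2 and from -1.13 to -0.16 for Mki67. It ran from -1.26 to -0.39 for Birc5 and from -0.87 to -0.20 for Ube2c.

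The difference between genotypes in the summed members was then split into a part from the number of cycling cells and parts from the level in each class. The members made up 5.94 and 5.54 UMIs per 10000 of an average microglial cell in PRMT1FL mice against 7.93 and 10.4 in PRMT1Cx3cr1-KO mice. Summed over the 4 pairs of a PRMT1FL and a PRMT1Cx3cr1-KO mouse, the number of cycling cells carried 67.0% of the difference. In single pairs this part was 56.4 to 72.7%. The level in cycling cells carried 15.3% of the summed difference and the level in non-cycling cells 17.7%. The pairs share mice and are not replicates. The number part was 75.4% at a gate of 5 UMIs, 59.7% at 10 and 66.0% in thinned cells. The part of the level in cycling cells was then 0.639%, 2.71% and 3.01%, and that in non-cycling cells 23.9%, 37.6% and 30.9%. At 10 UMIs the number part ranged from 39.4 to 70.8% over the pairs. At a gate of 2 UMIs the number part was 55.5%, with 30.5% in the level in cycling cells and 14.0% in non-cycling cells. Without Hmgb2 the number part was 73.0%. With 34 S-phase genes added to the gate, 42.3 to 51.8% of microglia passed and the number part was 17.4%, with 74.3% in the level above the gate.

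**Figure D5:**
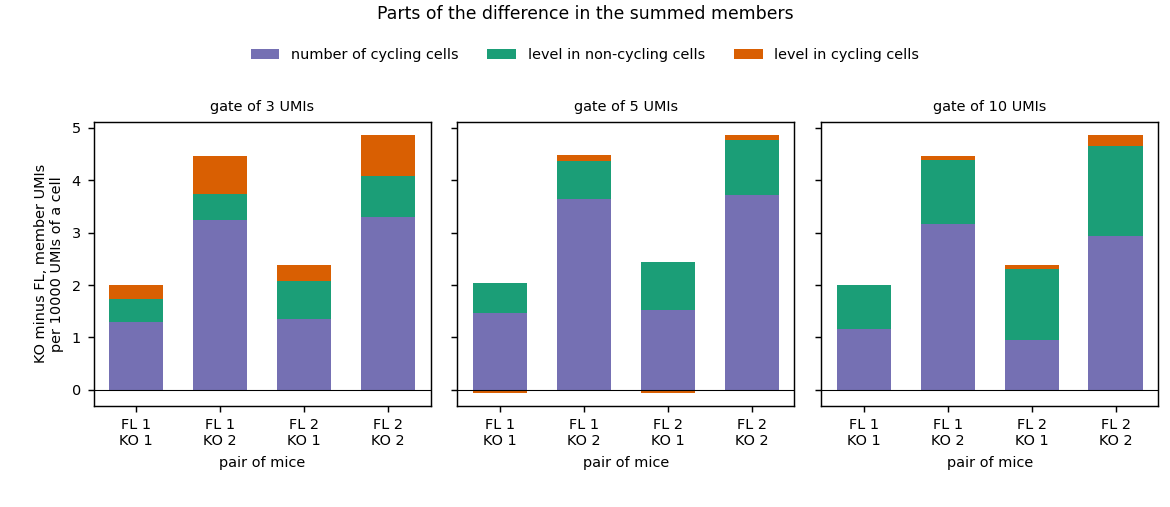
Difference in member UMIs per 10000 UMIs of a cell, PRMT1Cx3cr1-KO minus PRMT1FL, for each pair of mice at gates of 3, 5 and 10 UMIs, stacked by the part from the number of cycling cells, the level in non-cycling cells and the level in cycling cells. At 3 UMIs the number part is 1.30 to 3.30 of differences of 1.99 to 4.87, and at 5 UMIs the level in cycling cells runs from -0.0549 to 0.0985.

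Other genes of the cell cycle were read from lists. The 34 S-phase genes had a median of 0.39 in log2 fold change in all microglia (0.02 to 0.71), all were above 0 and none was called. At an unadjusted p under 0.05 there were 26, beside 2787 of the 13951 genes tested in either direction. Rrm2, a subunit of ribonucleotide reductase, stood at 9.12 and 9.94 CPM against 14.2 and 17.7 CPM, and Rad51ap1, a recombination factor, at 7.42 and 7.72 CPM against 10.4 and 12.6 CPM. In the test between the classes all 34 S-phase genes had a smaller log2 fold change in cycling cells (median -0.35, beside -0.28 for the members), and 4 of them were called (Dtl, Hells, Mcm6 and Uhrf1), so that the members were not alone in this. In cycling cells the ratio of the summed members without Hmgb2 to the summed S-phase genes was 1.92 and 1.84 in PRMT1FL mice against 2.06 and 2.20 in PRMT1Cx3cr1-KO mice. At the gate of 3 UMIs the members thus stood slightly higher against S-phase genes in both PRMT1Cx3cr1-KO mice. Cells with only 3 or 4 gate-gene UMIs made up 39.6% and 39.7% of the PRMT1FL cycling cells against 34.2% and 29.7%. The part of these cells in the ratio was not tested.

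Of 19 regulators of G2/M and E2F transcription none was called over all microglia (median 0.07). At an unadjusted p under 0.05 in either direction there were 6, beside 2787 of 13951 genes tested. E2f2, an activator of S-phase genes, stood at 3.94 and 4.46 CPM against 7.32 and 7.19 CPM (log2 fold change 0.72, edgeR adjusted p = 0.0524) and E2f3, its relative, at 18.9 and 18.5 CPM against 25.8 and 25.4 CPM (0.38, edgeR adjusted p = 0.0762). Within non-cycling cells E2f3 was called higher, at 18.0 and 17.3 CPM against 25.4 and 25.8 CPM (0.47, SE 0.07, edgeR adjusted p = 0.0341). E2f1, another activator, was called in the test between the classes, with a smaller log2 fold change in cycling cells (-0.48, edgeR adjusted p = 0.0258). Of 19 genes that switch cyclin-dependent kinases on or off, 1 was called over all microglia. Cdkn2a, whose products p16 and p19Arf restrain the cell cycle (chromosome 4, 89274471 to 89294653), rose from 8.42 and 9.98 CPM to 19.6 and 29.1 CPM (log2 fold change 1.33, SE 0.18, edgeR adjusted p = 0.0474). It was also called within cycling cells, at 18.0 and 20.0 CPM against 28.3 and 36.3 CPM (0.72, SE 0.12, edgeR adjusted p = 0.0473), and within non-cycling cells, at 6.09 and 7.56 CPM against 16.5 and 25.3 CPM (1.54, SE 0.20, edgeR adjusted p = 0.0280). The Cdkn2a difference was smaller in cycling cells (-0.84, SE 0.10, edgeR adjusted p = 9.2e-04), as were those of Ccne2, an E-type cyclin, and Cdkn1a, the inhibitor p21 (-1.18 and -0.28, both called). Cdkn2c, another inhibitor, stood at 13.1 and 13.2 CPM against 17.0 and 17.7 CPM in all microglia (0.33, edgeR adjusted p = 0.0902).

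Of 20 further genes of the anaphase-promoting complex and the checkpoint none was called (median 0.05). An unadjusted p under 0.05 in either direction was found for 2, beside 2787 of 13951 genes tested. Mad2l1, which holds back Cdc20, stood at 5.25 and 5.52 CPM against 6.88 and 10.1 CPM, and Cdc27, a core subunit of the complex, at 10.7 and 10.8 CPM against 12.2 and 13.7 CPM. Of 7 genes of growth factor signals tested none was called (median -0.10), and 4 had such an unadjusted p, beside the same 2787 of 13951 genes. Igf1, a growth factor, stood at 191 and 200 CPM against 236 and 319 CPM, and Csf1r, the receptor on which microglia depend, at 1571 and 1510 CPM against 1376 and 1285 CPM.

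Prmt1 was lower in both classes. In cycling cells it stood at 106 and 102 CPM in PRMT1FL mice against 83.8 and 84.6 CPM in PRMT1Cx3cr1-KO mice (log2 fold change -0.35, SE 0.07, edgeR adjusted p = 0.0791). In non-cycling cells it stood at 87.2 and 79.4 CPM against 65.3 and 63.1 CPM, and was called lower (-0.44, SE 0.07, edgeR adjusted p = 0.0482). The difference between the classes was 0.08 (SE 0.05) and was not called (edgeR adjusted p = 0.684). Mitochondrial UMIs made up 2.01 to 2.17% in cycling cells and 2.02 to 2.10% in non-cycling cells. Barcodes with the highest doublet scores made up 15.4 to 20.6% of cycling cells and 5.45 to 7.84% of non-cycling cells, and without them the shares of cycling cells were 10.3%, 10.6%, 15.0% and 21.3%.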

How the data were processed

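Single-cell libraries (10x Genomics 3′ chemistry) of sorted cells from 4 mice were used, with the mouse as the replicate. Per the labels, the files came from Cell Ranger 3.1.0 run on mm10, and the authors deposited the raw counts (UMIs per gene and barcode), not normalized. Feature and barcode lists were used as names only, and every count column belonged to 1 sample.

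The 44 members, their roles and all gene lists were chosen with earlier results of these data known. Barcodes were kept if they had 200 to 6000 genes and no more than 10% of UMIs from mitochondrial genes. Microglia had at least 2 of 10 microglial markers with at least 5 UMIs, and no list of another cell type with 3 or more markers at 0.2% or more of the UMIs. Cells in which other lists reached this limit (307 border macrophage, 30 monocyte, 73 neutrophil, 0 lymphocyte, 219 astrocyte and 74 endothelial, a cell can count in several) were set aside. Doublets were kept. Scanpy's simulated-doublet caller (scanpy 1.11.5) set thresholds that marked 0 to 2 barcodes per library and so did not work, and leaving out the highest 8% of scores was an alternative. Cycling cells were defined by 58 of 62 listed gate genes, and the 4 older symbols were not used here.

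Counts were summed per mouse and tested with edgeR 4.0.16 (TMM, filterByExpr, quasi-likelihood test, Benjamini-Hochberg over all genes tested) in R 4.3.3. The tests were checked on simulated counts. Fold changes are fitted, and CPM are plain shares of the summed counts. Each SE is approximate, as it was worked out from the fitted log2 fold change and the F statistic of its test. DESeq2 1.42.0, library totals, no filter, other gates, a replicate block and leaving out each mouse were alternatives. The split into parts used midpoint weights. Depth was 73928690 to 95541711 UMIs in microglia and 14383934 to 33176181 in cycling cells.

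Named members were, in each of 8 roles, the 2 with the highest mean CPM, every called member, and the 3 largest and 3 smallest log2 fold changes over all microglia. From the pathway lists the 2 genes with the smallest p were named, and others were named for their role after values were seen. Gene positions are those of GENCODE vM21.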

Additional observations from a re-analysis of the deposited data

Results flagged for a closer look

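For 4 members the test of the difference itself found a genotype effect that differed between cycling and non-cycling cells of the same mice at the gate of 3 UMIs. The log2 fold change in cycling cells minus that in non-cycling cells was -1.21 for Ccnb2, -0.96 for Mki67, -0.81 for Birc5 and -0.56 for Ube2c. In cycling cells their log2 fold changes were 0.13, 0.13, 0.23 and 0.09. Over 12 alternatives the 4 genes were called in 11, 11, 8 and 9 settings. The 58 gate genes, which define the classes, had a median of -0.31 in the same test, with 49 below 0 and 4 called smaller. The median of the 44 members was -0.28. The gate genes are transcribed with the members, so the gate sets in part the level on both sides of it. Its part in these calls was not tested.

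Genes outside the members were called in the same edgeR test. Of the S-phase genes, the difference was -1.10 for Dtl, -0.71 for Hells, -0.35 for Mcm6 and -0.74 for Uhrf1. Of the regulators it was -0.84 for Cdkn2a, -1.18 for Ccne2, -0.28 for Cdkn1a and -0.48 for E2f1. It was -0.21 for P2ry12 of the homeostatic genes, and 0.20 for Egr1, 0.13 for Junb and -0.33 for Fosb of the immediate early genes. Of the MHC class II list it was 0.87 for Cd74, 0.91 for H2-Aa, 0.87 for H2-Ab1 and 1.05 for H2-Eb1.

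Barcodes with more than 6000 genes were left out of the main comparisons and were kept only in an alternative. Of all barcodes, 0.486% in PRMT1Cx3cr1-KO mouse 1 and 0.553% in PRMT1Cx3cr1-KO mouse 2 lay above this limit and met the gate of 3 UMIs, against 0.130% and 0.290% in the PRMT1FL mice (51 and 61 barcodes against 15 and 24). Whether they are single cells was not tested. With these cells kept, 1 member (Hmgb2) was called over all microglia, beside 0.329% of genes tested called higher.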

How the results depend on the processing

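Directions over all microglia held for the 20 named members and Prmt1 in every alternative, while the counts of calls did not. Counts of members below describe how calls moved with the setting. Where no count of genes stands beside them, the share over all genes is not given. The number of genes tested also differed between settings. Of 560 alternative values of single named genes, 401 stayed on their side of the threshold with the same sign, 111 became called, 33 lost a call and 15 changed sign. No change of sign was of a called value, and the causes were not tested unless the setting itself shows one, such as fewer mice.

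Over all microglia, where 3 members and 105 genes were called, the counts of members and genes were 35 and 716 with DESeq2, 6 and 204 (151 higher) with library totals, 44 and 1526 with every gene with a UMI, 10 and 749 (194 higher, against 68 of 105) with all cells that passed the filters, and 2 and 63 without the highest doublet scores (chosen after seeing the data). With cells above the gene limit kept, also chosen after seeing the data, 1 member was called. Without each mouse in turn the range was 0 to 44 members and 4 to 2727 genes. With library totals the median of all genes moved by under 0.1.

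The labels number the mice of each genotype 1 and 2, and the numbers share nothing else. Deviations from the genotype means correlated at 2.1e-04 for same-numbered mice. With 2 mice per genotype, both same-numbered pairs must give this 1 value. With the replicate block, 16 members and 294 genes were called over all microglia, 0 members and 357 genes in cycling cells, and 0 members in non-cycling cells.

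In cycling cells, where 0 members and 62 genes were called, the members were 1 with the gate with S-phase genes and 1 with every gene with a UMI, and the genes were 230 with all cells, 151 with DESeq2, 103 with library totals and 672 with every gene with a UMI. Without each mouse in turn there were 0 to 11 members and 30 to 1375 genes. The median log2 fold change of 0.13 became 0.26 with a gate of 2 UMIs, -0.06 with 5, -0.07 with 10 and 0.57 with S-phase genes. In cycling cells Ccnb2, Ube2c, Kif23 and Mki67 changed sign at gates of 5 (-0.09, -0.09, -0.06, -0.06) and 10 UMIs (-0.13, -0.12, -0.07, -0.07), and Mki67 ranged from -0.05 to 0.29 without each mouse in turn.

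In non-cycling cells, where 2 members and 174 genes were called, the members were 0 with cells above the gene limit kept, 0 with a gate of 2 UMIs, 1 with 5, 1 with 10, 0 with S-phase genes, 5 with DESeq2 and 11 with every gene with a UMI. For cells above the gene limit and gates of 2 UMIs, 5 UMIs and S-phase genes the share over all genes is not given. Those counts are not read as results about the members. The genes were 680 with all cells, 106 with a gate of 10 UMIs, 522 with DESeq2 and 1103 with every gene with a UMI, and the median was 0.71 with a gate of 10. Without each mouse in turn there were 0 to 12 members and 6 to 1953 genes.

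For the difference between the classes, where 4 members and 91 genes were called and the median was -0.28, the members were 2 without the highest doublet scores, 20 with a gate of 5 UMIs, 28 with 10 and 1 with S-phase genes. The share over all genes is not given for the doublet and S-phase settings, so their counts are not read as results about the members. The genes were 273 and 228 with gates of 5 and 10, and the medians -0.54, -0.76 and, with S-phase genes, 0.12. Without each mouse in turn there were 2 to 11 members and 59 to 313 genes. The difference became 0.16 for Cks2 and 0.23 for Kif23 with S-phase genes, and for Hmgb2 0.01 without the highest doublet scores, 0.10 with a gate of 2 UMIs, 0.31 with S-phase genes and -0.15 to 0.11 without each mouse in turn.

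The log2 ratio of the shares of cycling cells, 0.76, was 0.17 with S-phase genes and 0.49 to 0.98 without each mouse in turn. The number part of 67.0% was 55.5% with a gate of 2 UMIs, 75.4% with 5, 59.7% with 10, 17.4% with S-phase genes and 60.4 to 70.3% without each mouse in turn. Depth limits the non-cycling cells most, where Ttk rested on 8 to 16 UMIs per mouse.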

Other observations

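Genes of microglial states were read in cycling and non-cycling cells. The MHC class II list holds H2-Aa, H2-Ab1, H2-Eb1 and the class II chaperone Cd74, which act in the presentation of antigen to T cells. These 4 genes summed to 542 and 625 CPM in cycling cells of PRMT1FL mice and 306 and 211 CPM in those of PRMT1Cx3cr1-KO mice. In non-cycling cells the sums were 1429 and 1863 CPM against 528 and 268 CPM. All 4 genes had a larger log2 fold change (less negative) in cycling cells, and all 4 were called in the test of that difference with edgeR, with a median of 0.89. The damage-associated genes summed to 28882 to 33530 CPM in cycling cells and 40529 to 45051 CPM in non-cycling cells, with the sums of the genotypes overlapping in both. Single genes were mostly lower in PRMT1Cx3cr1-KO mice. The log2 fold change was below 0 for all 7 over all microglia (median -0.32) and in non-cycling cells (median -0.33). In cycling cells it was below 0 for 5 and above 0 for 2 (median -0.43). Of the 7 damage-associated genes, edgeR called 2 lower in cycling cells, Cst7 (1998 and 1877 CPM in PRMT1FL mice against 1271 and 1011 CPM, log2 fold change -0.81, adjusted p = 0.0302) and Itgax (76.4 and 71.7 CPM against 35.2 and 19.4 CPM, -1.50, adjusted p = 0.0349), and in non-cycling cells it called Cst7 lower (-0.71, adjusted p = 0.0352). The 7 homeostatic genes summed to 2469 to 2752 CPM in cycling cells and 2535 to 2907 CPM in non-cycling cells over the 4 mice. Their log2 fold changes were above 0 for 4 and below 0 for 3 in cycling cells (median 0.06). In non-cycling cells 5 were above 0 and 2 below (median 0.10), and over all microglia also 5 and 2 (median 0.06). Of the 7 genes, only Siglech was called by edgeR. It was lower in cycling cells, at 398 and 415 CPM in PRMT1FL mice against 292 and 280 CPM (-0.56, adjusted p = 0.0226), in non-cycling cells (-0.68, adjusted p = 0.0208) and over all microglia (-0.66, adjusted p = 0.0379). The summed interferon genes were 393 and 449 CPM in cycling cells of PRMT1FL mice and 442 and 226 CPM in those of PRMT1Cx3cr1-KO mice. The log2 fold change was below 0 for all 8 interferon genes in cycling cells (median -0.46). In non-cycling cells it was below 0 for 7 and above 0 for 1 (median -0.19), and none was called in either class.

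Haemoglobin RNA lay in few cells. In PRMT1FL mouse 1, 8 microglia held at least 100 haemoglobin UMIs, of which 1 was cycling, and in PRMT1FL mouse 2 it was 1 cycling cell. The PRMT1Cx3cr1-KO mice had 0 such cells.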
